A study of Mus musculus with 12 samples.

Results

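The genes described here are 9 members of the TGF-beta and activin axis, namely Inhba, Inhbb, Fst, Tgfb1, Tgfb2, Tgfb3, Tgfbr1, Tgfbr2 and Smad7, out of 34678 gene symbols listed for each tumor. They were chosen by name, from a list drawn up with measured expression differences of these same 12 tumors in view, and each symbol was listed once. Which of those differences led to the choice is not recorded, so the levels and differences of the 9 genes are given as a description of these tumors and not as independent evidence. All 9 passed the filter on low values, a mean of at least 0.1 FPKM (sequenced fragments per kilobase of transcript, scaled to a fixed library size) over the 12 tumors, which 15350 genes passed.

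The tumors grew in C57BL/6 mice from LLC1-shLkb1 cells. The paper injected such cells under the skin or into the chest, and its account of the sequencing does not name the site. The cells are a mouse Lewis lung carcinoma line in which Lkb1 (Stk11), a tumor suppressor kinase, is knocked down by short hairpin RNA. Every arm carries this knockdown, and no tumor without it was among the samples. The 4 arms of 3 tumors each were vehicle (control immunoglobulin G), palbociclib (an inhibitor of the cell cycle kinases CDK4 and CDK6), an antibody against the T cell checkpoint receptor PD-1, and both drugs together (the combination). Each library holds the RNA of a whole tumor, so fewer cells of a type and less RNA per cell cannot be told apart. The labels give neither the ages of the mice nor the day of harvest, which the paper gives only for its mouse experiments in general. Stk11 itself stood at 7.90 to 11.5 FPKM over the 12 tumors, with overlapping arms, and without a control line this does not check the knockdown. The tissue is labelled as a lung adenocarcinoma. Of 5 lung epithelial markers Nkx2-1, Sftpc and Scgb1a1 were at 0 in all 12 tumors, Sftpb was at 0.0944 FPKM or less, and Napsa was at 1.07 to 2.50 FPKM in every tumor.

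TGF-beta and the activins are secreted dimers of one protein family. They bind a type II receptor kinase, which activates a type I receptor kinase, which in turn phosphorylates the transcription partners Smad2 and Smad3. TGF-beta is stored in a latent form and has to be released, activins are held in check by binding proteins such as follistatin, and the pathway induces its own inhibitor, Smad7. In tumors it is known for matrix production by fibroblasts, for restraint of T cells and for acting on endothelium.

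Inhbb and Inhba encode the beta subunits of activin B and activin A, and their promoters are printed here because Inhbb is the member with the greatest palbociclib effect and Inhba its closest relative. Inhbb is a protein-coding gene on the minus strand at chr1:119415465-119422248, and Inhba lies on the plus strand at chr13:16011851-16031621 (GRCm38). The 250 bases before each start site, from RefSeq on GRCm38.p6, are at chr1:119422249-119422498 and chr13:16011601-16011850. Capitals mark CCGCCC, the reverse complement of the GC box GGGCGG, and TATAAA, the TATA box.
Inhbb: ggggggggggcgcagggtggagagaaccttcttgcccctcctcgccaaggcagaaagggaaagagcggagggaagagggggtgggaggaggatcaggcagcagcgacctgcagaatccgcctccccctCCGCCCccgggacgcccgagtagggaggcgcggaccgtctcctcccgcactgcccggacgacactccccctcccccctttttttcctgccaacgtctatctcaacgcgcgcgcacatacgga
Inhba: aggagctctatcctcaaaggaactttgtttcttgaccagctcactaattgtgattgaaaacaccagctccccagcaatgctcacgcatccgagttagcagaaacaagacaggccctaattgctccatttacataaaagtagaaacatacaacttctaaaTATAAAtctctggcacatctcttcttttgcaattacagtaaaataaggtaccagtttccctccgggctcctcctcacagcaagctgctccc

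The Inhbb stretch holds 68.0% G and C and 1 GC box, and the Inhba stretch 43.2% G and C and 1 TATA box, against a median of 52.4% G and C over 32851 mouse promoters of the same length. On both strands, 32.7% of all promoters hold a GC box and 12.4% a TATA box. The Smad-binding letters CAGAC, found in 42.2% of promoters, and the CCAAT box, found in 33.8%, are not in either window, nor are the palindromes GTCTAGAC (0.167% of promoters) and TGACGTCA (1.55%). Of the other members, Tgfb1, Tgfb2, Tgfbr1 and Tgfbr2 matched the promoter table, and Tgfb3, Fst and Smad7 did not.

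The members spanned a wide range of levels. On the FPKM scale, which corrects for transcript length, the mean over 12 tumors was 21.7 for the type II receptor gene Tgfbr2, above 84.8% of the genes tested. The ligand genes Tgfb3 (9.34) and Tgfb1 (8.08) came next, with overlapping ranges of 6.96 to 14.2 and 6.62 to 10.9. Inhbb (2.64), Smad7 (2.41) and the type I receptor gene Tgfbr1 (2.38) formed a middle group, again with overlapping ranges. Fst (0.255), Inhba (0.252) and Tgfb2 (0.104) were near the floor, with an estimated 0 to 24, 2 to 43 and 7 to 22 fragments per tumor, so that counting error is large for them.

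**Figure D1:**
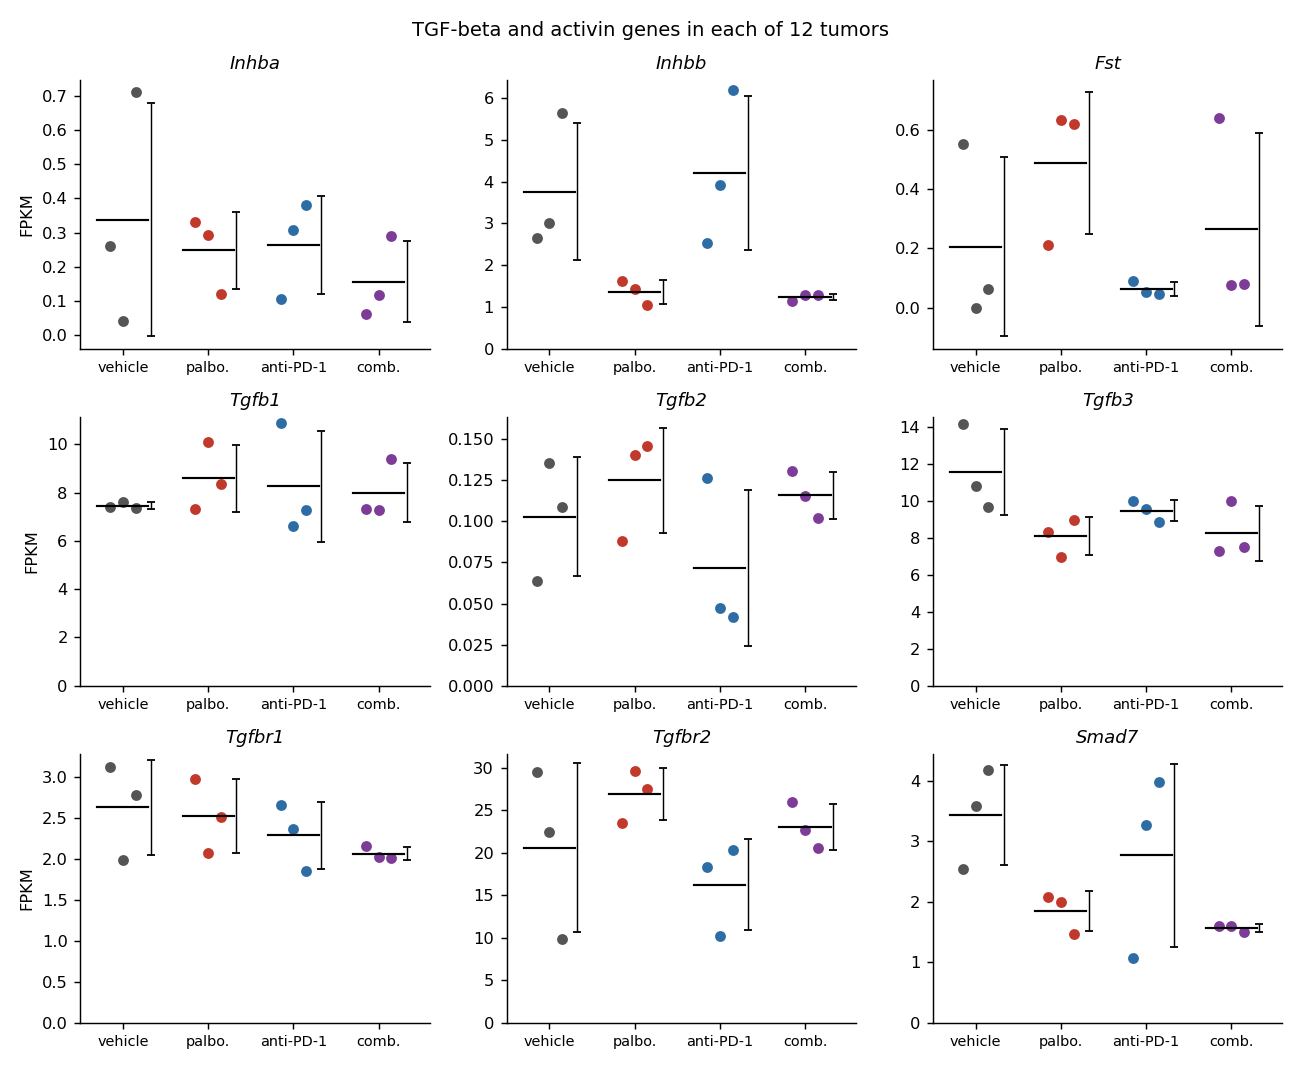
FPKM (linear axis) of the 9 genes in each of 12 tumors, one panel a gene with its own scale, points in replicate order, a bar at the mean of each arm and a line of 1 SD to each side of it (n = 3). The 6 palbociclib-treated tumors lie between 1.04 and 1.61 FPKM for Inhbb, below the 6 others at 2.54 to 6.19.

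Among the activin ligands, Inhbb was low in every tumor that received palbociclib. Its levels were 2.64, 3.00 and 5.65 FPKM in the vehicle tumors and 1.61, 1.44 and 1.04 FPKM in the palbociclib tumors. They were 2.54, 3.92 and 6.19 FPKM in the anti-PD-1 tumors and 1.14, 1.27 and 1.29 FPKM in the combination tumors. The 6 treated tumors (mean 1.30 ± 0.205 FPKM, SD, n = 6) all lay below the 6 tumors without palbociclib (3.99 ± 1.58 FPKM, n = 6), and the combination tumors were the tightest arm. Inhbb was the only member so separated, while 0.41% of all genes tested had every treated tumor below every untreated tumor.

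The palbociclib effect, the mean of palbociclib minus vehicle and combination minus anti-PD-1, used all 12 tumors. For Inhbb it was -1.47 on the log2(FPKM + 0.1) scale (SE 0.23, 95% interval -1.99 to -0.96, limma, Benjamini-Hochberg adjusted p = 0.0399), a 2.78-fold lower level. Taken arm by arm the difference was -1.35 (SE 0.33) for palbociclib against vehicle and -1.60 (SE 0.33) for the combination against anti-PD-1, and the difference between those, the interaction, was -0.26 (95% interval -1.29 to 0.77). As contrasts of 3 against 3 tumors in the fit over all 12, neither passed the adjusted threshold of 0.05 (limma adjusted p = 0.158 and 0.306), nor did the combination against vehicle, at -1.45 (adjusted p = 0.184). Anti-PD-1 alone gave 0.15 (95% interval -0.58 to 0.88), with arms that overlapped.

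The size of the Inhbb difference held while its call did not. Leaving out each tumor in turn gave palbociclib effects of -1.63 to -1.31, but the adjusted p rose above the threshold, to 0.0663 to 0.122, in 9 of 12 such fits, all but those without vehicle tumor 1, anti-PD-1 tumor 1 or combination tumor 2. In those 9 fits the number of genes called among all 15350 was 0 to 10, against 48 with every tumor.

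Inhba varied within arms more than between them. It stood at 0.260, 0.0435 and 0.711 FPKM in the vehicle tumors, and the other 3 arms lay between 0.0628 and 0.380 FPKM, all inside the vehicle range. Its palbociclib effect was -0.28 on the log2(FPKM + 0.1) scale (95% interval -1.23 to 0.66). The fragments behind it, an estimated 157 over all 12 tumors, allow no finer statement, and for each of the 3 treated arms the sign of its difference from vehicle turned on leaving out at least 1 tumor.

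The TGF-beta ligand genes had small differences. Tgfb3 was 14.2, 10.8 and 9.67 FPKM in the vehicle tumors, 8.33, 6.96 and 8.95 FPKM in the palbociclib tumors, 10.004, 9.54 and 8.87 FPKM in the anti-PD-1 tumors and 7.29, 9.97 and 7.51 FPKM in the combination tumors. All 3 palbociclib tumors were below all 3 vehicle tumors, but combination tumor 2 lay within the vehicle range, and the palbociclib effect of -0.35 (SE 0.12, 95% interval -0.61 to -0.099) did not pass (limma adjusted p = 0.144). Tgfb1, the main TGF-beta of immune cells, stayed between 6.62 and 10.9 FPKM in all 12 tumors, with a palbociclib effect of 0.083 (95% interval -0.20 to 0.37). Tgfb2 was at 0.0416 to 0.146 FPKM, and its 6 treated tumors (median 0.123) overlapped the 6 untreated (median 0.0862).

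Fst, which encodes the activin antagonist follistatin, was uneven within arms. Vehicle tumor 1, palbociclib tumors 2 and 3 and combination tumor 1 stood at 0.553, 0.633, 0.620 and 0.641 FPKM. Palbociclib tumor 1 was at 0.211 FPKM, vehicle tumor 2 was listed at 0, and the other 6 tumors were between 0.0462 and 0.0894 FPKM. The arms overlapped except that all 3 palbociclib tumors exceeded all 3 anti-PD-1 tumors, and the palbociclib effect of 1.07 had an interval from -0.059 to 2.19. An estimated 115 fragments over the 12 tumors lie behind these values.

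Of the receptors, Tgfbr2 varied most among tumors without palbociclib. Its levels were 29.5, 22.4 and 9.86 FPKM in the vehicle tumors, 23.5, 29.6 and 27.5 FPKM in the palbociclib tumors, 18.3, 10.2 and 20.3 FPKM in the anti-PD-1 tumors and 25.9, 22.6 and 20.6 FPKM in the combination tumors. All 6 treated tumors were at 20.6 FPKM or more, and vehicle tumor 3 and anti-PD-1 tumor 2 were the lowest. The combination tumors lay above the anti-PD-1 tumors by a narrow margin, and the palbociclib effect of 0.53 (SE 0.25, 95% interval -0.017 to 1.09) did not pass (limma adjusted p = 0.255). Tgfbr1 stayed at 1.85 to 3.13 FPKM, with a palbociclib effect of -0.090 (95% interval -0.40 to 0.22).

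Smad7, the inhibitory Smad that blocks the activated type I receptor, resembled Inhbb except for 1 tumor. It stood at 2.54, 3.58 and 4.18 FPKM in the vehicle tumors, 2.07, 1.99 and 1.47 FPKM in the palbociclib tumors, 1.08, 3.27 and 3.97 FPKM in the anti-PD-1 tumors and 1.61, 1.61 and 1.49 FPKM in the combination tumors. Both arms with palbociclib lay below every vehicle tumor, while anti-PD-1 tumor 1 was the lowest of all 12. The palbociclib effect of -0.72 (SE 0.27, 95% interval -1.32 to -0.13) did not pass with all tumors (limma adjusted p = 0.179). Without anti-PD-1 tumor 1 it passed, at a limma adjusted p of 0.0208, in a fit that called 758 of all 15350 genes against 48 with every tumor. Leaving out any other single tumor gave Smad7 a limma adjusted p of 0.106 to 0.368. Across the 12 tumors the log2 levels of Inhbb and Smad7 had a Pearson r of 0.806 (Spearman 0.811) and an r of 0.833 after subtracting arm means, a description over points that share their libraries.

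**Figure D2:**
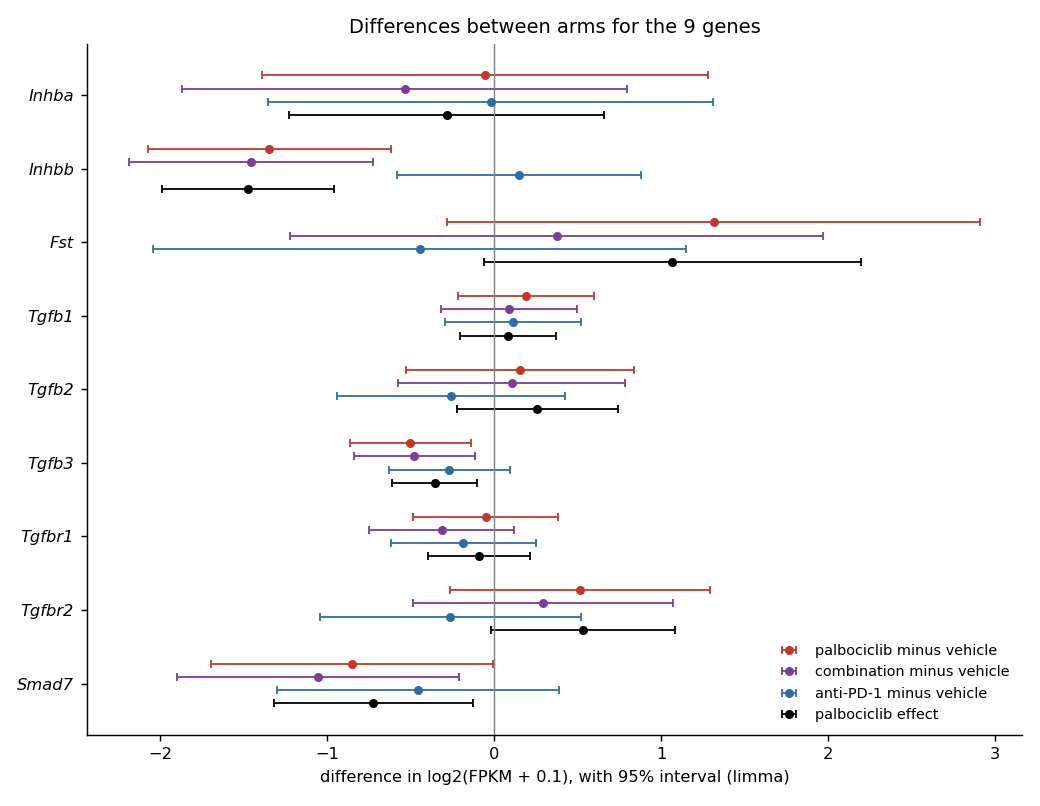
Differences of the 9 genes in log2(FPKM + 0.1), points with 95% intervals from limma, for each treated arm minus vehicle and for the palbociclib effect over all 12 tumors. For Inhbb the palbociclib effect is -1.47 and its interval ends at -0.96, while its anti-PD-1 interval spans 0.

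In counts, 1 of the 9 members passed the adjusted threshold in the palbociclib effect, lower, beside 0.313% of all genes tested (48 of 15350, of which 38 were higher and 10 lower). None passed in the other contrasts, where 0.143% of all genes passed for palbociclib against vehicle, 0.0% for anti-PD-1 against vehicle, 0.013% for the combination against vehicle, 0.00651% for the combination against palbociclib, 0.00651% for the combination against anti-PD-1 and 0.0% for the interaction. For the 0 calls of anti-PD-1 against vehicle and of the interaction, 1289 and 879 genes had an unadjusted limma p under 0.05, none of them a member. Members with an unadjusted p under 0.05 numbered 3 in the palbociclib effect (20.5% of all genes tested), 3 for palbociclib against vehicle (13.8%), 3 for the combination against vehicle (17.0%), 1 for the combination against anti-PD-1 (11.8%) and 0 for the combination against palbociclib (4.52%). The median palbociclib effect of the members was -0.090 and that of all genes tested 0.055 on the log2 scale, and since the members were named with results known nothing is read from these counts.

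The arms did not overlap for 3 members between palbociclib and vehicle (Inhbb, Tgfb3 and Smad7, all lower), beside 19.3% of all genes. There were 2 such members for the combination against vehicle (Inhbb and Smad7, lower), beside 22.5%, and 2 for the combination against anti-PD-1 (Inhbb lower, Tgfbr2 higher), beside 18.8%. Anti-PD-1 against vehicle separated 0 members, beside 11.3%. The comparisons with vehicle share the same 3 vehicle tumors.

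Other genes of the pathway were taken from 6 lists holding 82 genes outside the 9 members, of which 81 were in the files and 68 passed the low-value filter. In the palbociclib effect 1 was called, lower, 0 were called higher, 51 had a negative and 17 a positive difference, and the median was -0.12, while 40.2% of all genes tested were negative and their median was 0.055. An unadjusted limma p under 0.05 was reached by 18 of the 68, beside 20.5% of all genes tested. That share, and 0.313% for calls, is the background for the counts of each list below. The called gene was Ctgf (connective tissue growth factor, Ccn2), a matrix-associated protein induced by TGF-beta and by mechanical signals. Its levels were 4.41, 5.65 and 6.61 FPKM in the vehicle tumors, 0.998, 0.764 and 0.622 FPKM in the palbociclib tumors, 1.27, 2.91 and 6.81 FPKM in the anti-PD-1 tumors and 0.617, 1.005 and 0.843 FPKM in the combination tumors. All 6 treated tumors were below all 6 untreated ones, and the palbociclib effect was -2.21 (SE 0.32, limma adjusted p = 0.0388). In the 9 leave-one-out fits that lost the Inhbb call, no pathway gene was called, and in the other 3, without vehicle tumor 1, anti-PD-1 tumor 1 or combination tumor 2, 8, 8 and 4 were. Among all 15350 genes tested those 3 fits called 692, 758 and 264, against 48 with every tumor.

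The TGF-beta target genes, Ctgf included, had palbociclib effects of both signs. Of 18 target genes tested, 14 had a negative and 4 a positive palbociclib effect, with a median of -0.40. An unadjusted limma p under 0.05 was reached by 7 of them, beside 20.5% of all genes tested. Cyr61, a relative of Ctgf, and Bhlhe40, a hypoxia- and TGF-beta-responsive repressor, had differences of -1.23 and -1.02 (adjusted p = 0.0938 and 0.265). Named after their values were seen, the fibronectin gene Fn1 was at -0.46, the collagen gene Col1a1 at 0.38 and Snai2 at 0.36, none of which passed. Tgfbi, a secreted matrix protein named for its induction by TGF-beta, was at 0.82 (limma adjusted p = 0.197). Col1a1, Snai2 and Tgfbi are among the 4 positive genes and do not stand for the 14 negative ones. Col1a1 ran from 0.685 to 58.0 FPKM, and its treated (mean 14.1) and untreated (14.7) tumors overlapped.

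**Figure D3:**
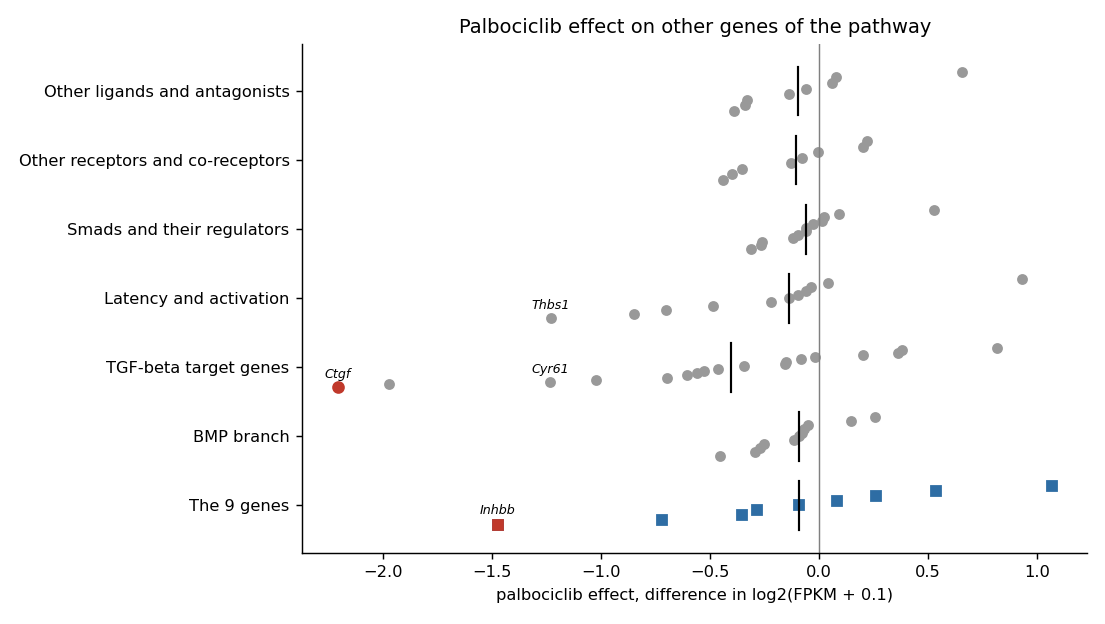
Palbociclib effect, the difference in log2(FPKM + 0.1), for the 68 other pathway genes by list (grey circles) and for the 9 genes (squares), with the median of each row as a black line and genes with an adjusted p under 0.05 in red. Ctgf at -2.21 and Inhbb at -1.47 are the red points.

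In the list of other ligands and antagonists, 0 of 8 tested genes were called by limma, with 3 at an unadjusted p under 0.05. Fstl3, a follistatin relative that binds activins, averaged 15.9 FPKM in vehicle, 15.8 in anti-PD-1, 12.7 in palbociclib and 11.4 in combination tumors, with no overlap between the 6 treated and 6 untreated tumors, and its effect of -0.39 (SE 0.070) just missed the threshold (limma adjusted p = 0.0521). At these levels Fstl3 mRNA exceeded that of Fst in every tumor. Fstl1, Gdf15 and Gdf3 had differences of -0.33, -0.34 and 0.66, none of which passed.

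Of 8 receptors and co-receptors tested 0 were called, with 1 at an unadjusted limma p under 0.05, and the 4 with the greatest absolute differences were Tgfbr3 (betaglycan, the TGF-beta co-receptor) at -0.44, the activin type II receptor gene Acvr2b at -0.40, the activin type I receptor gene Acvr1b at -0.35 and the endothelial co-receptor gene Eng at 0.22. The list of Smads and their regulators likewise had 0 of 12 called, with 3 at an unadjusted p under 0.05. Its 4 named genes were the Smad co-repressor gene Ski at 0.53, the ubiquitin ligase gene Smurf2 at -0.31 (limma adjusted p = 0.0950), Smad3 at -0.27 and Trim33 at -0.26.

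Genes that store or release latent TGF-beta also gave 0 calls of 11 tested by limma, with 4 at an unadjusted p under 0.05 and both signs among them. Thbs1 (thrombospondin 1, an activator of latent TGF-beta) had a difference of -1.23 but reached 54.5 FPKM in combination tumor 3, as high as in any tumor. Lrrc32 (GARP), which docks latent TGF-beta on regulatory T cells, endothelium and platelets, was at -0.85, and the latency-binding protein gene Ltbp3 at -0.70. Nrros, which tethers latent TGF-beta on macrophages and microglia, went the other way at 0.93 (limma adjusted p = 0.152). In the BMP branch 0 of 11 tested genes were called and 0 had an unadjusted limma p under 0.05, and Bmp2, Smad9, Bmp6 and Id2 were at -0.45, -0.29, -0.27 and 0.26.

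For the lists of cell type markers the summed levels of the 6 treated and 6 untreated tumors overlapped in every list, and no marker passed the threshold. Over all genes tested 0.313% passed in the palbociclib effect and 40.2% were negative, so 0 calls in lists this short say little. The 5 neutrophil markers all had a negative palbociclib effect, none called, and their summed level was 31.4 to 538 FPKM in vehicle, 47.1 to 276 in anti-PD-1, 15.2 to 33.1 in palbociclib and 14.1 to 88.5 in combination tumors, with none of the 5 at 0 in every tumor. Of 6 endothelial markers 5 were negative, 0 called, and their sum was 16.8 to 36.3 FPKM in the 6 untreated and 13.9 to 17.7 in the 6 treated tumors. Every treated tumor was below every untreated one for Pecam1 (at most 3.71 and 3.88 FPKM in the 2 treated arms, at least 3.96 untreated) and Cdh5 (at most 7.59, at least 7.99). For Kdr, Tie1, Emcn and Esam they overlapped, and 0.41% of all genes tested were so separated. All 7 macrophage markers were positive, 0 called, with sums of 124 to 686 FPKM in untreated and 391 to 896 in treated tumors, and the 6 T cell markers were likewise all positive, 0 called, at 2.03 to 6.89 against 4.97 to 16.0 FPKM. The 8 proliferation markers were also all positive, 0 called, with sums of 261 to 444 FPKM in untreated and 361.3 to 426 in treated tumors. The part of these cells and of proliferation in the Inhbb, Smad7 and Tgfbr2 values was not tested.

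Described across the 12 tumors, the mean log2 level of the neutrophil markers had a Pearson r of 0.843 with Inhbb, 0.684 with Smad7 and -0.864 with Tgfbr2. The macrophage mean had an r of -0.837 with Inhbb and 0.841 with Tgfbr2, and the endothelial mean an r of 0.755 with Inhbb. For the T cell mean r was -0.836 with Inhbb and -0.700 with Smad7, and for the proliferation mean -0.697 with Inhbb and -0.894 with Smad7. These values share their libraries and arms, and no test was made of them. They were not taken after subtracting arm means, so differences between arms enter each r. The pairs are a selection, and others included macrophage with Smad7 (-0.746), pan-leukocyte with Inhbb (-0.715) and T cell with Tgfbr2 (0.639).

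Markers of tissue around the tumor stood out in some treated tumors and, for muscle, also in vehicle tumor 1. Adipose markers, 8 of 8 positive in the palbociclib effect and 0 called, summed to 360 FPKM in palbociclib tumor 1 and 866 in combination tumor 1, against 0.624 to 1.80 in the 6 untreated tumors and 1.10 to 31.7 in the other 4 treated ones. Skeletal muscle markers, also 8 of 8 positive and 0 called, summed to 178 and 166 FPKM in palbociclib tumor 3 and combination tumor 2. In the other 10 tumors they summed to 0.788 to 61.3 FPKM, highest in vehicle tumor 1 (61.3) and then anti-PD-1 tumor 1 (11.4). Both of these untreated tumors stayed in the fit without the 2 muscle-rich tumors. Skin markers, 7 of 7 tested positive and 0 called, summed to 371 FPKM in palbociclib tumor 2. Without the 2 adipose-rich tumors the Inhbb effect was -1.51 (limma adjusted p = 0.137), and without the 2 muscle-rich tumors it was -1.40 (adjusted p = 0.0774), with no member and no pathway gene called in either fit. Among all 15350 genes tested, 0 were called without the adipose-rich tumors and 87 without the muscle-rich tumors, against 48 with every tumor.

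Among 11186 other genes with a mean of at least 1 FPKM, the 3 whose log2 levels followed Inhbb most closely over the 12 tumors were Trp53i11 (r = 0.968), Dll4 (0.967) and Angpt2 (0.964). After subtracting arm means r was 0.903, 0.912 and 0.918. Dll4 encodes a Notch ligand of sprouting vessels and Angpt2 the vessel-destabilizing angiopoietin-2, and Angpt2 was 2.95, 6.50 and 14.9 FPKM in the vehicle tumors, 3.02, 2.26 and 2.03 in the palbociclib tumors, 4.30, 7.30 and 13.2 in the anti-PD-1 tumors and 1.92, 1.88 and 2.54 in the combination tumors. Vehicle tumor 3 and anti-PD-1 tumor 3 were the highest for Inhbb and for all 3 of these genes. Their palbociclib effects were -1.42, -1.01 and -1.60 (limma adjusted p = 0.0689, 0.0736 and 0.0797).

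**Figure D4:**
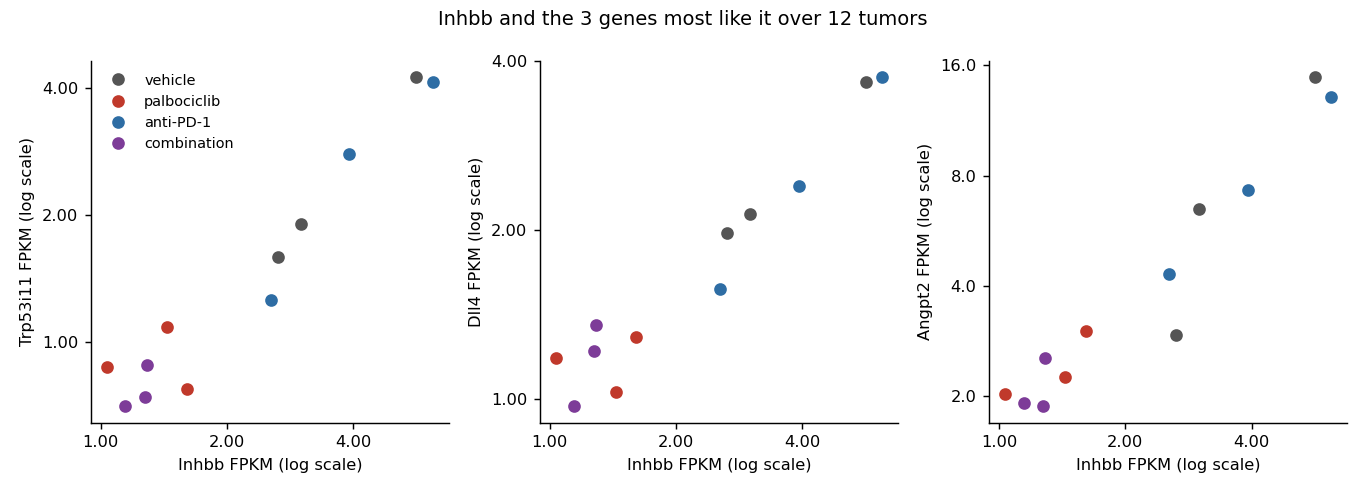
FPKM of Inhbb (x axis, log scale) against Trp53i11, Dll4 and Angpt2 (y axes, log scale), a point per tumor colored by arm. Vehicle tumor 3 and anti-PD-1 tumor 3 sit at the upper right and the 6 palbociclib-treated tumors toward the lower left. For Angpt2 treated and untreated tumors overlap, with palbociclib tumor 1 at 3.02 FPKM and vehicle tumor 1 at 2.95. The r over 12 tumors is 0.968, 0.967 and 0.964.

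For Smad7 the closest genes were the ubiquitin ligase gene Nedd4 (r = 0.967), the AP-1 gene Fosl2 (0.966) and the Notch coactivator gene Maml3 (0.963), with r of 0.956, 0.963 and 0.961 after subtracting arm means. Tgfbr2 came closest to Ppp1r12c (0.905), Trim68 (0.900) and Tmem86a (0.885), and Tgfb1 to Osgin2 (0.938), the leukocyte tetraspanin gene Cd37 (0.876) and Efhd2 (0.856). The closest gene had an r of 0.848 for Tgfb3 (Pvrl3, followed by Gpsm1 and Eva1c) and 0.835 for Tgfbr1 (Gm11476, followed by Bcl2l2 and Rbm6). For the members near the floor these were Hmgxb3, Hist1h4k and Itpripl2 for Inhba (r = 0.939, 0.935 and 0.893), the basement membrane collagen gene Col15a1, Isyna1 and Scarf1 for Fst (0.932, 0.910 and 0.909) and Ppp2r3c, Nnmt and Zfp58 for Tgfb2 (0.863, 0.843 and 0.840), where few fragments make the likeness uncertain.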

How the data were processed

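RNA of 12 tumors, 3 per arm, was sequenced as bulk libraries. The authors deposited 1 table of FPKM values per tumor. The submitters' processing notes name HISAT2 and the mouse build GRCm38 (mm10), and the program and annotation behind the gene values are not given in the sources used here, nor whether reads were counted by strand. Of 34745 entries per tumor, 67 repeated a symbol and only the entry with the highest mean was kept, which left 34678 symbols. Depth was estimated from the steps between low FPKM values, at 14871774 to 20272649 fragments per tumor, and bears on counting error only. Groups came from the treatment labels. Between vehicle and anti-PD-1 the deviations of all 3 same-numbered pairs correlated above 0.1, from the data and not from a labelled pairing, and with the replicate number as a block that contrast still had 0 genes called. The labels name the samples as separate tumors. Each p-value sets a difference of arms against the spread of tumors within arms, pooled over the 4 arms and moderated across genes. Differences were taken on log2(FPKM + 0.1), which understates the change of low genes, for the 15350 genes with a mean of at least 0.1 FPKM, with limma 3.58.1 in R 4.3.3 (1 mean per arm, eBayes with a trend, Benjamini-Hochberg over all genes tested, threshold 0.05, two-sided). Steps were tested on simulated data. No count test was run, since FPKM are not counts. Correlations, positions and promoters were handled in Python 3.11.15.

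The members and the pathway and marker lists were chosen with earlier results of these data known. Named genes are all 9 members, from each pathway list every gene past the threshold in the palbociclib effect or against vehicle and otherwise the 4 with the greatest absolute palbociclib effect, and for each member the 3 genes with a mean of at least 1 FPKM most correlated with it. A gene that this rule names is not reported here, though the list counts include it. Fn1, Col1a1, Snai2 and Tgfbi were named after their values were seen. Alternatives were other pseudocounts, filters, scalings, no trend, the replicate number as a block, and leaving out each tumor. Leaving out tumors rich in adipose or muscle markers was added after the data were seen.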

Additional observations from a re-analysis of the deposited data

How the results depend on the processing

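The 1 member called in the palbociclib effect became 0 with no filter (Inhbb adjusted p = 0.0649) and 0 with eBayes without a trend (0.0543), 0 without the 2 adipose-rich tumors and 0 without the 2 muscle-rich tumors. Leaving out each tumor in turn gave 0 to 2 members, the 2 being Inhbb and Smad7 without anti-PD-1 tumor 1. In the other contrasts 0 members were called under every alternative run. The 1 pathway gene called became 4 with a filter at a mean of 1 FPKM, 0 with no filter, 2 on values rescaled to TPM, 3 after quantile normalization, 0 without a trend, 0 without the adipose-rich and 0 without the muscle-rich tumors, and 0 to 8 leaving out each tumor. Genes called among all tested numbered 48, 70 with the stricter filter, 11 with no filter, 0 without a trend, 129 with the replicate block and 0 to 758 leaving out each tumor. They numbered 0 without the adipose-rich and 87 without the muscle-rich tumors. Deviations of same-numbered tumors had r of -0.213 to 0.453, above 0.1 in 7 of 18 pairs, and 6 of 12 tumors correlated best with one of their own number, so over all 4 arms the number was not taken as a pairing. As a replicate block it gave 4 pathway genes and changed no member's call (Inhbb adjusted p = 0.0322). The sign turned for Inhba against vehicle with a pseudocount of 0.01 (palbociclib 0.13, anti-PD-1 0.15), for anti-PD-1 after quantile normalization (0.017) and for palbociclib without the muscle-rich tumors (0.25), for Tgfb2 under palbociclib after quantile normalization (-0.14) and for Fst in the combination without the adipose-rich tumors (-0.31). Leaving out each tumor turned the sign against vehicle within these ranges: under palbociclib, Inhba -0.69 to 0.56 and Tgfbr1 -0.23 to 0.081; under anti-PD-1, Inhba -0.66 to 0.59, Inhbb -0.17 to 0.48, Fst -1.01 to 0.34, Tgfb1 -0.10 to 0.25, Tgfbr2 -0.72 to 0.067 and Smad7 -0.80 to 0.096; in the combination, Inhba -1.17 to 0.077, Fst -0.31 to 1.16, Tgfb1 -0.031 to 0.15, Tgfb2 -0.040 to 0.22 and Tgfbr2 -0.17 to 0.62. The palbociclib effect of Inhba ran from -0.60 to 0.022. None of these sign changes was of a called value, and the cause was not tested. Depth limits Inhba, Fst and Tgfb2, at most 43 estimated fragments per tumor.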
